A study of Homo sapiens with 4 samples.

Results

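The genes described here encode the machinery that copies chromosomal DNA: the origin recognition complex, the licensing factors, the MCM helicase ring and its activators, the replicative polymerases, the sliding clamp and its loader, the single-strand binding protein, the enzymes that finish the lagging strand and 4 enzymes that supply nucleotides. The list held 47 genes, picked by name and with no cutoff on a measured value, but with earlier results of these data known. Of these, 36 had at least 1 peak in the PRMT5 RIP-seq of Jurkat cells. These 36 genes carried 118 of the 18993 peaks and were 36 of the 8478 genes with a peak.

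Jurkat, an established human leukemic T cell line, was stimulated with PHA, a plant lectin that activates T cells, for 48 hours in all samples. RNA was crosslinked to protein with UV light and recovered by FLAG immunoprecipitation of PRMT5, an arginine methyltransferase, in 2 PRMT5 RIP libraries, and 2 input libraries held RNA of the same kind of lysate without the immunoprecipitation. All 4 libraries carry the same cell line and treatment, so that the only comparison in the design is PRMT5 RIP against input. The labels do not say how the FLAG tag was introduced, and an immunoprecipitation from cells without tagged PRMT5 or with control IgG was not analysed here. The authors deposited 1 peak list with a single pooled value per peak for RIP and for input, as reads scaled to library size (RPM), so no spread between replicates and no test between RIP and input can be given for any value in this report. The read depth of each library is unknown from this list. The pooled values summed to 755969 RPM for RIP and 489424 RPM for input over all peaks.

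The log2 ratio of a gene is log2 of its RIP RPM over its input RPM, each summed over the gene's peaks, with 0.01 RPM added to both sums. Because the ratio changes with the input level, all genes were ordered by summed input RPM and cut into 10 classes of equal size, and every gene is also set against the median log2 ratio of its input class. RPM values are not scaled to length, so levels are not compared between genes. A peak list holds only called regions, so a gene without a peak has no value here, whatever its level or binding. All 10 T cell markers looked up (CD2, CD3D, CD3E, CD3G, CD7, CD28, CD247, LAT, LCK and ZAP70) had peaks, with summed input from 3.46 RPM at CD2 to 417 RPM at CD3D, and of 12 markers of other blood and tissue cells only CD79A, at 37.3 RPM, and CSF1R, at 29.5 RPM of input, had one.

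DNA replication starts at sites marked by the origin recognition complex, onto which CDC6 and CDT1 load the MCM2 to MCM7 ring in G1, while geminin holds CDT1 back later in the cycle. CDC45 and the GINS complex turn the ring into an active helicase, and polymerase alpha with primase, then polymerases delta and epsilon on the PCNA clamp, extend the new strands. Transcription of many of these genes is driven by E2F factors when a T cell is stimulated to divide, and their mRNAs accumulate toward S phase.

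The promoters of the list held an E2F-type sequence more often than promoters in general, and a few windows are printed to show this feature, which the choice of genes did not use. The search covered TTTCCCGC, TTTCGCGC, TTTGCCGC and TTTGGCGC on both strands, in a window from 250 bases before to 50 bases after the RefSeq start (GRCh38.p14). A window was given for 41 of the 47 genes, and 20 of these (48.8%) held a match, against 3.99% of the 27305 genes in the table. Among genes with a peak the shares were 16 of 32 replication genes and 7.4% of 6039 named genes. TTTCCCGC was the most frequent, in 26.8% of the replication genes and 1.98% of all, and TTTGGCGC (17.1% and 0.795%) and TTTCGCGC (12.2% and 0.63%) followed. TTTGCCGC was in none of the replication gene windows and in 0.725% of all. The motif set was chosen after the RPM values were known. In the following 8 windows of 30 bases, printed 5′ to 3′ on the strand of the gene, capitals mark the match or overlapping matches.
MCM2 at chr3:127598404-127598433 (+): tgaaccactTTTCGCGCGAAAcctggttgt
MCM3 at chr6:52284728-52284757 (-): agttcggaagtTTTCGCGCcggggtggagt
MCM6 at chr2:135876513-135876542 (-): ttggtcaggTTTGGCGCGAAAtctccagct
MCM7 at chr7:100101388-100101417 (-): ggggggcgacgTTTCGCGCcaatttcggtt
CDT1 at chr16:88803743-88803772 (+): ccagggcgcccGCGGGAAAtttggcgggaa
POLE2 at chr14:49688201-49688230 (-): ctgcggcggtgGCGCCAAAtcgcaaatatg
PCNA at chr20:5126663-5126692 (-): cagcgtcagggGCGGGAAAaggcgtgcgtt
TYMS at chr18:657603-657632 (+): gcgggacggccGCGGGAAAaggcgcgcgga

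Every gene of the MCM ring with a window held a match (4 of 4), as did all 3 licensing factors and 3 of 4 polymerase epsilon genes. Of the 6 origin recognition genes only ORC3 did, and neither of the 2 polymerase delta genes with a window did. A match describes letters in a window and says nothing of binding by a factor.

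Across the list, PRMT5 RIP was above input at nearly every gene, as it was over the whole peak list. The excess was smaller than at most genes of the peak list. All peaks are called regions, and whether the calling favoured regions with RIP above input is not given. The excess by itself is therefore not read as binding to these genes. The 36 genes had a median log2 ratio of 0.82, a 1.76-fold excess of RIP over input, within a range from -0.60 for POLE2 to 1.71 for GINS1. All 8478 genes had a median of 1.20, or 2.30-fold. At 10 of the 36 genes RIP was at least 2 times input, where 62.7% of all genes were, and POLE2 alone lay below input, where 2.22% of all genes did. The 10 genes at 2-fold or more were GINS1, PRIM2, POLE, POLE4, RRM2, MCM2, POLE3, POLA2, GINS3 and RPA2.

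**Figure D1:**
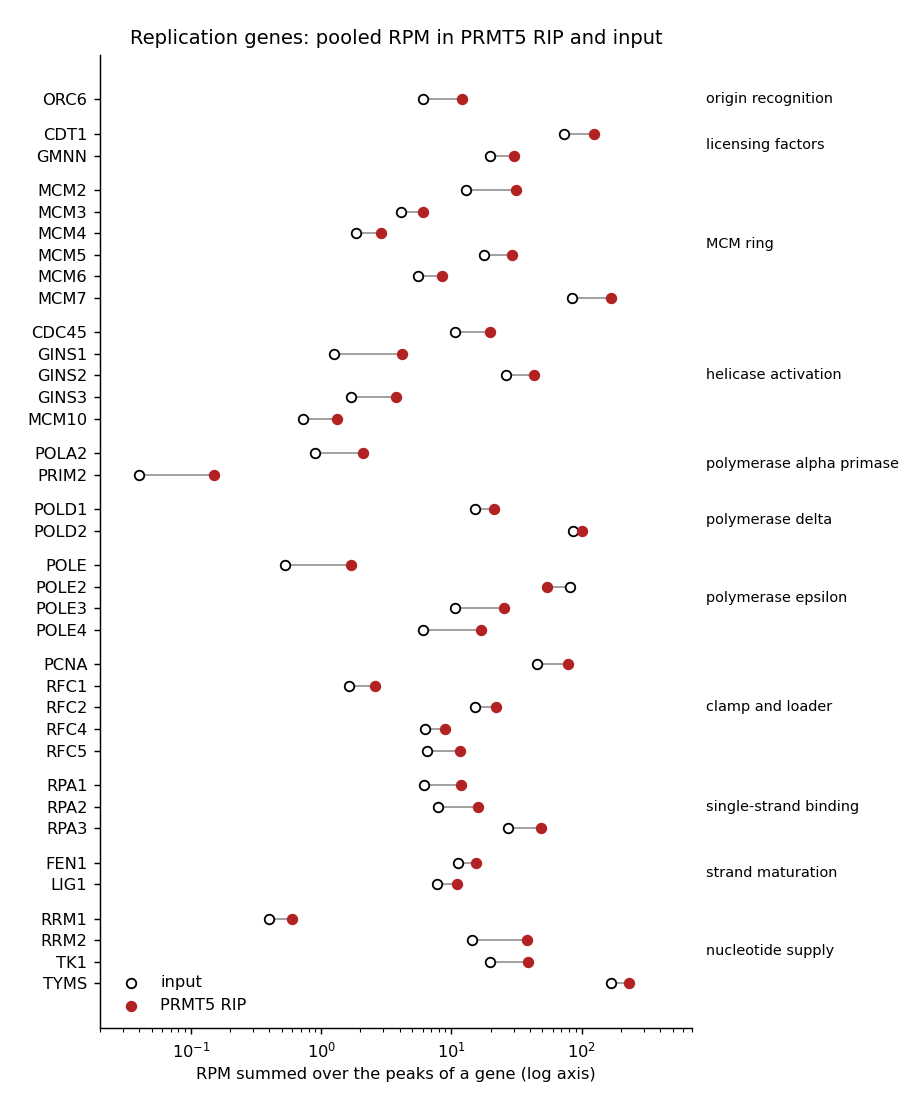
RPM summed over the peaks of each of the 36 replication genes (x axis, log scale) in the pooled PRMT5 RIP (filled) and in the pooled input (open), in groups by role, with 1 value per gene and no error because the list holds pooled values. RIP lies to the right of input for every gene but POLE2, at 53.8 RPM in RIP and 81.5 RPM in input.

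Part of this distance goes with the input level. Over all genes the median log2 ratio declined in each step from 1.87 in the lowest input class to 0.65 in the highest, and 27 of the 36 replication genes lay in the upper 5 classes. Spearman's rho between summed input RPM and the log2 ratio was -0.403 over the 36 genes and -0.546 over all 8478. The input RPM stands in both measures and the same libraries underlie all points, so these values are descriptions across genes. Set against their own input class, the replication genes had a median difference of -0.13 on the log2 scale, with 26 genes below and 10 above the median, where 50.0% of all genes were below by construction. The 26 genes are 72.2% of the list. Over the settings tried this share ran from 60.0%, with every identifier listed, to 74.3%, with names only where all peaks touch the gene. The difference of medians from all genes was -0.38, and it was -0.04 with a pseudocount of 1 RPM. The median difference within input classes was -0.26 when only the peak with the most input was used for each gene.

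**Figure D2:**
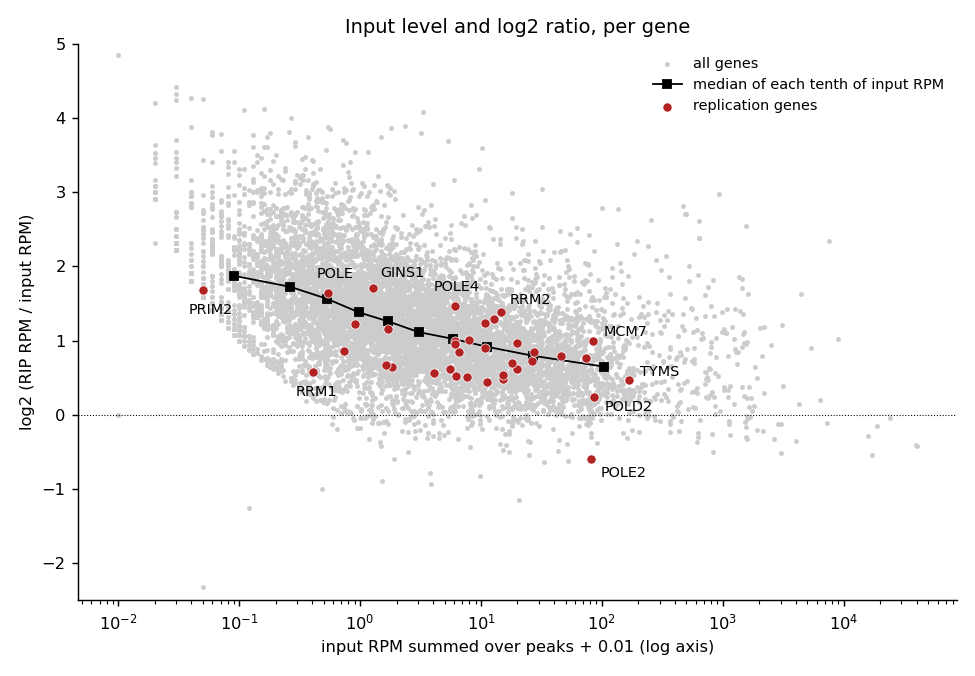
log2 ratio of RIP to input RPM (y axis) against summed input RPM plus 0.01 (x axis, log scale) for all 8478 genes (grey), the medians of the 10 input classes (black squares) and the 36 replication genes (red), with 4 genes beyond the y axis range. The replication genes lie mostly under the line of medians, and POLE2 lies farthest under it.

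Of the origin recognition complex, the ATP-binding assembly that marks origins, only ORC6 had peaks. ORC1, ORC2, ORC3, ORC4 and ORC5 had none. ORC6 had 3 peaks that summed to 12.1 RPM in RIP and 6.08 RPM in input, a log2 ratio of 1.00 that differed from the median of its input class by -0.03. CDC6, the ATPase that loads the MCM ring together with CDT1, had no peak either. Its partner CDT1 had 124 RPM in RIP and 73.3 RPM in input, with a log2 ratio of 0.76. GMNN, which encodes the CDT1 inhibitor geminin, had 30.1 RPM in RIP and 19.6 RPM in input, with a log2 ratio of 0.61. CDT1 was thus above its input class by 0.11 and GMNN below its input class by a difference of -0.18.

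The 6 genes of the MCM ring, whose products form the hexameric helicase, all had peaks, with a median log2 ratio of 0.67. MCM2 stood apart within the ring, at 31.4 RPM in RIP and 12.9 RPM in input, a log2 ratio of 1.29. MCM7 followed with 168 RPM in RIP and 84.5 RPM in input, a log2 ratio of 0.99. These 2 genes were above the median of their input class, by 0.37 and 0.34, and the remaining 4 were below theirs. MCM5 had 29.0 RPM in RIP and 17.9 RPM in input, a log2 ratio of 0.70. MCM4 had 2.89 RPM in RIP and 1.84 RPM in input, a log2 ratio of 0.65. These 2 genes had ratios close to each other and to the median of the ring. MCM6 had 8.48 RPM in RIP and 5.55 RPM in input, a log2 ratio of 0.61. The lowest of the ring was MCM3, at 6.05 RPM in RIP and 4.08 RPM in input, a log2 ratio of 0.57. Subunits that meet in the same ring therefore ranged from a 1.48-fold excess at MCM3 to 2.45-fold at MCM2.

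Within the ring genes the excess was not even along the transcript. MCM2 (ENSG00000073111.14) had 5 peaks, of which the first, chr3:127598436-127606313, began 25 nt inside the annotated start and held 75.1% of the gene's input RPM. That peak had 25.3 RPM in RIP and 9.65 RPM in input, a log2 ratio of 1.39, and the last peak had 0.34 RPM in RIP and 0.24 RPM in input, a log2 ratio of 0.49. Of the 3 peaks between them, the log2 ratios were 0.54, 1.26 and 0.99 in order from the 5′ end, and the peak at 0.99 lay over a peak of the other strand.

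MCM7 (ENSG00000166508.18) also had its highest ratio at the first peak. Its 5 peaks had log2 ratios of 1.64, 1.52, 0.82, -0.20 and 0.69 in order from the 5′ end. The first, chr7:100100780-100101387, began 10 nt inside the start and had 12.5 RPM in RIP and 3.99 RPM in input. The peak below input was 25 nt wide and had 1.71 RPM in RIP and 1.97 RPM in input. The last, chr7:100092803-100094331, had 47.6 RPM in RIP and 29.5 RPM in input and lists 4 gene identifiers, so its reads cannot be given to MCM7 alone.

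In the other ring genes with several peaks the first peak was not the highest. MCM5 (ENSG00000100297.16) had log2 ratios of 0.78, 0.24, 0.36, 0.87 and 0.37 over its 5 peaks. MCM4 (ENSG00000104738.19) ran the opposite way over its 2 peaks, with 1.14 RPM in RIP and 1.01 RPM in input at the peak nearer the start and 1.75 RPM against 0.83 RPM at the other. MCM3 (ENSG00000112118.20) held 95.6% of its input RPM in the first peak, with a log2 ratio of 0.55, and had a second peak of 25 nt with a log2 ratio of 0.80. MCM6 (ENSG00000076003.5) had a single peak of 3715 nt, chr2:135872701-135876415, that began 28 nt inside the start.

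**Figure D3:**
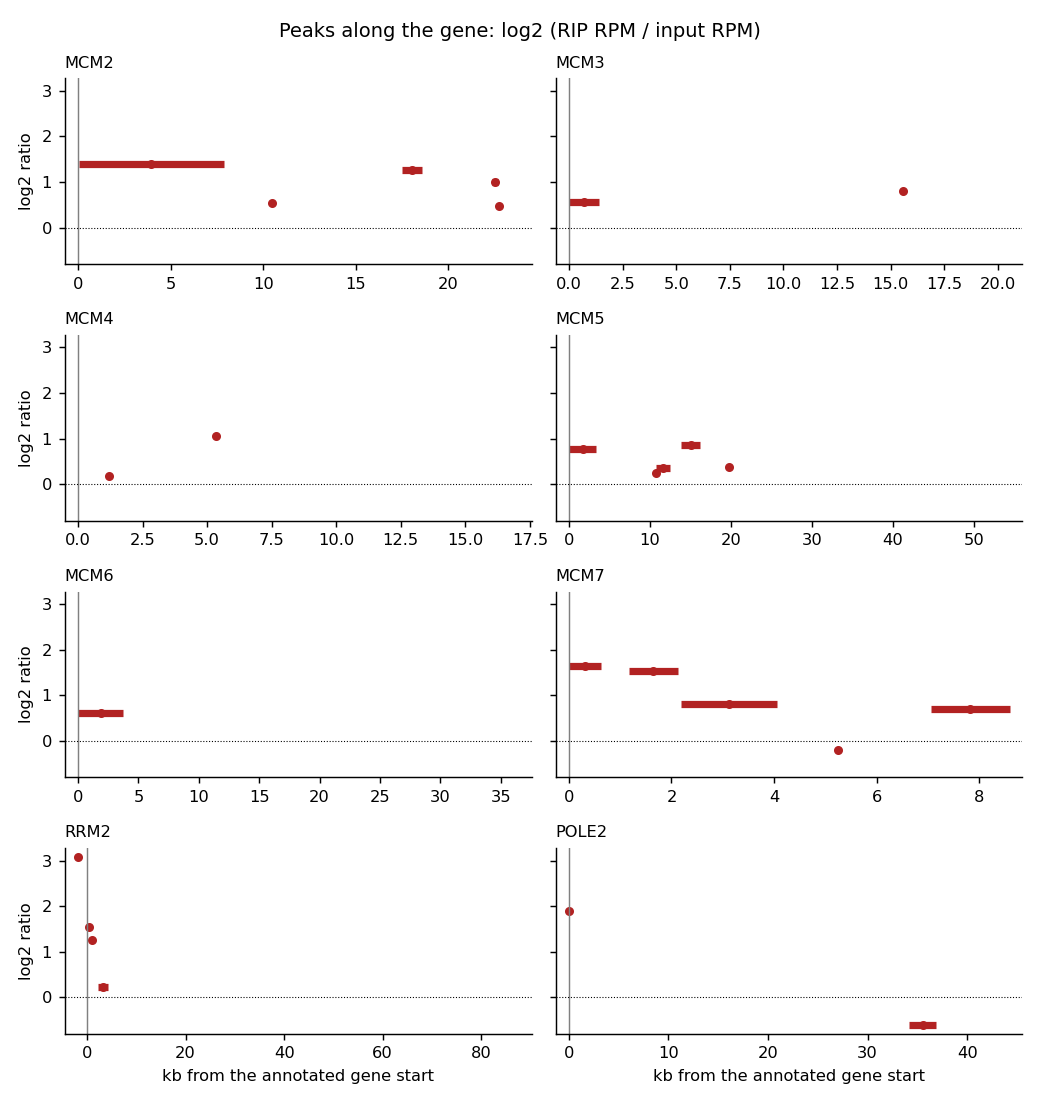
log2 ratio of RIP to input RPM (y axis) of each peak of the 6 MCM ring genes, RRM2 and POLE2 against the distance from the annotated gene start in kb (x axis, in the direction of transcription), with a bar as wide as the peak and a point at its middle. In MCM2, MCM7, RRM2 and POLE2 the most 5′ peak has the highest ratio of the gene, which in RRM2 is an upstream peak with 0.01 RPM of input. In MCM3 and MCM4, with 2 peaks each, the most 5′ peak has the lower ratio.

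The activators of the helicase included the gene with the highest ratio of the list. GINS1 (ENSG00000101003.12), a subunit of the GINS complex that joins CDC45 on the ring, had 4.14 RPM in RIP and 1.26 RPM in input, a log2 ratio of 1.71 or 3.29-fold. Its first peak, chr20:25407695-25411147, had 3.16 RPM in RIP and 0.83 RPM in input, and its second had 0.98 RPM in RIP and 0.43 RPM in input, so both contributed, with log2 ratios of 1.92 and 1.17. GINS3 had 3.76 RPM in RIP and 1.68 RPM in input in 1 peak that lay over a peak of the other strand, a log2 ratio of 1.16. GINS2 had 43.3 RPM in RIP and 26.2 RPM in input, a log2 ratio of 0.72, and GINS4 had no peak. Of the 4 subunits of 1 complex, then, the ratio spanned from 1.65-fold to 3.29-fold among the 3 with peaks. CDC45 had 19.9 RPM in RIP and 10.7 RPM in input, a log2 ratio of 0.89. MCM10, which helps to start the activated helicase, had 1.31 RPM in RIP and 0.72 RPM in input in 1 peak, a log2 ratio of 0.85. Only GINS1 of this group was above its input class, by 0.33, and MCM10 was farthest below, at -0.53.

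For polymerase epsilon, which extends the leading strand, 3 of the 4 genes were above the median of their input class and at 2-fold or more. POLE (ENSG00000177084.19), the catalytic subunit, had 1.68 RPM in RIP and 0.53 RPM in input, a log2 ratio of 1.65. POLE4 (ENSG00000115350.12), a histone-fold subunit, had 16.9 RPM in RIP and 6.08 RPM in input in 1 peak of 10914 nt that covers most of the gene, a log2 ratio of 1.47. POLE3 (ENSG00000148229.13), its histone-fold partner, had 25.3 RPM in RIP and 10.7 RPM in input, a log2 ratio of 1.24. The 3 peaks of POLE3 had log2 ratios of 1.69, 0.51 and 0.79 in order from the 5′ end. In these genes RIP was 2.36 to 3.17 times input. The highest of these, POLE, rests on low input, with 0.05 RPM at its first and at its last peak. POLE was above its input class by 0.08, POLE4 by 0.45 and POLE3 by 0.32. POLE kept that side in 12 of 13 alternative settings and POLE3 in 13 of 14, while POLE4 kept it in all 13.

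POLE2 (ENSG00000100479.14), the second subunit of the same enzyme, lay at the other end. Its sums were 53.8 RPM in RIP and 81.5 RPM in input, a log2 ratio of -0.60, which was lower than the median of its input class by a difference of -1.25 and at percentile 0.236 of that input class. A single peak, chr14:49651374-49654010, made this value. It lay 34204 nt from the annotated start, held 99.8% of the gene's input RPM, and had 53.2 RPM in RIP and 81.4 RPM in input. The other peak, at the start of the gene (chr14:49688138-49688212), had 0.62 RPM in RIP and 0.16 RPM in input, a log2 ratio of 1.89. Without the inner peak, a setting chosen after the data were seen, no gene of the list was below input, against 2.21% of all genes. The median of the 36 genes was then 0.84. What RNA the reads of the inner peak come from was not tested.

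For polymerase delta, the lagging-strand enzyme, both listed genes with peaks had low ratios, and POLD3 had no peak. POLD4, the small subunit, which is not among the 47 genes, had 36.3 RPM in RIP and 17.0 RPM in input, a log2 ratio of 1.09, and was above its input class by 0.18, so the low ratios did not extend to every subunit. POLD2 (ENSG00000106628.13), the second subunit, had 101 RPM in RIP and 85.6 RPM in input, a log2 ratio of 0.24, the lowest of the list after POLE2. From the 5′ end its 5 peaks had log2 ratios of 1.72, 0.42, 0.02, 0.03 and 0.48, so that RIP and input were nearly equal at the 2 peaks before the last. POLD1 (ENSG00000062822.16), the catalytic subunit, had 21.2 RPM in RIP and 15.2 RPM in input over 12 peaks, a log2 ratio of 0.48. Peaks 10 and 11 of POLD1 lie inside peak 9 on the same strand and all 3 list 2 identifiers, so reads may stand more than once in its sums. The log2 ratios of the 12 peaks lay between 0.28, at peak 9, and 1.40, at peak 7, and that of the peak at the start was 1.07. Both genes were below the median of their input class, by differences of -0.44 for POLD1 and -0.41 for POLD2.

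Polymerase alpha with primase, which lays down the first primer, was thinly covered. POLA1 and PRIM1, which encode the catalytic subunits of the polymerase and of the primase, had no peak. POLA2 had 2.09 RPM in RIP and 0.89 RPM in input, a log2 ratio of 1.22, in 2 peaks that each list 2 identifiers. PRIM2 had 0.15 RPM in RIP and 0.04 RPM in input in 1 peak 96143 nt from the start. The log2 ratio of PRIM2, 1.68, was the second highest of the list, yet it rests on the lowest input of all 36 genes and was below the median of its input class by a difference of -0.20.

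**Figure D4:**
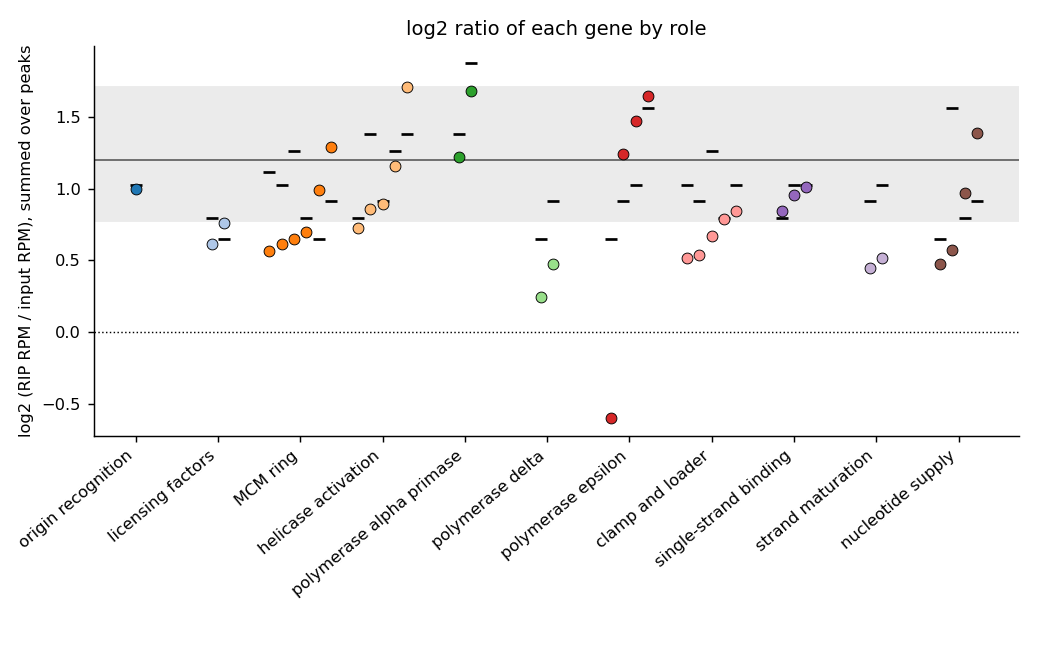
log2 ratio of RIP to input RPM, summed over peaks, of the 36 replication genes (points, y axis) by role (x axis), with a dash at the median of all genes in the same input class, and the median and the middle 50% of all 8478 genes as a grey line and band. All points of polymerase delta, the clamp and loader and strand maturation lie below their dashes, and 3 of 4 of polymerase epsilon lie above.

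The clamp and its loader were below the median of their input class in all 5 genes with peaks. PCNA (ENSG00000132646.11), the sliding clamp that holds the polymerases on DNA, had 78.9 RPM in RIP and 45.7 RPM in input, a log2 ratio of 0.79. All of it came from 1 peak, chr20:5117611-5119957, that began 6665 nt from the annotated gene start. Starts of single transcripts were not available here, so whether the peak lies at the start of a PCNA transcript was not tested. The difference of PCNA from its input class was 0.00 at 2 decimals, and its side held under only 4 of 14 alternative settings. RFC5 had 11.7 RPM in RIP and 6.50 RPM in input, a log2 ratio of 0.85. RFC1, the large subunit of the loader, had 2.58 RPM in RIP and 1.62 RPM in input, a log2 ratio of 0.67. The small subunits RFC2 and RFC4 were lower, in that RFC2 had 22.1 RPM in RIP and 15.2 RPM in input, a log2 ratio of 0.54. RFC4 had 8.96 RPM in RIP and 6.25 RPM in input, a log2 ratio of 0.52. Among the loader subunits RFC3 had no peak, and the differences from the input class ran from -0.18 at RFC5 to -0.59 at RFC1.

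Strand maturation gave 2 of the lower ratios. FEN1 (ENSG00000168496.4), the nuclease that trims the flaps of Okazaki fragments, had 15.3 RPM in RIP and 11.3 RPM in input, a log2 ratio of 0.44. Its 5 peaks had log2 ratios of 0.56, 0.04, 0.39, 0.36 and 0.24 from the 5′ end, and the first held 58.4% of the input RPM. LIG1, the ligase that seals them, had 11.0 RPM in RIP and 7.71 RPM in input spread over 12 peaks, a log2 ratio of 0.51. The peaks of LIG1 lay along nearly the whole gene with log2 ratios between 0.30 and 1.07. Both genes were below their input class, by differences of -0.47 and -0.51.

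The 3 genes of RPA, the complex that coats single-stranded DNA, were close to genes of like input. RPA2 had 15.9 RPM in RIP and 7.90 RPM in input, a log2 ratio of 1.01. RPA1 had 11.9 RPM in RIP and 6.12 RPM in input, a log2 ratio of 0.96. RPA3 had 49.2 RPM in RIP and 27.4 RPM in input, a log2 ratio of 0.84. The differences from their input classes were -0.01, -0.07 and 0.05, the narrowest span of any group with 3 or more genes.

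Of the 4 nucleotide supply genes, 2 were above and 2 below the median of their input class. RRM2 (ENSG00000171848.16), the small subunit of ribonucleotide reductase whose level follows S phase, had 38.0 RPM in RIP and 14.5 RPM in input, a log2 ratio of 1.39, and was above its input class by 0.47, the largest such difference of the list. RRM1, the large subunit, had 0.60 RPM in RIP and 0.40 RPM in input, a log2 ratio of 0.57, and differed from its input class by -0.99. The subunits of 1 enzyme thus lay on opposite sides of genes of like input, although the RRM1 value comes from 2 peaks of 25 nt near the start. TK1, thymidine kinase, had 38.9 RPM in RIP and 19.9 RPM in input, a log2 ratio of 0.97, and was above its input class by 0.18. TYMS (ENSG00000176890.16), thymidylate synthase, had 232 RPM in RIP and 167 RPM in input, a log2 ratio of 0.47, and differed from its input class by -0.18. TYMS had 1 peak of 13730 nt, chr18:657653-671382, which lay over a peak of the other strand.

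RRM2 had 4 peaks of unequal ratio. The 2 that held nearly all reads, chr2:10122718-10123190 and chr2:10123366-10123845, had log2 ratios of 1.55 and 1.27, with 22.2 and 14.8 RPM in RIP and 7.56 and 6.13 RPM in input. The most 3′ peak had 0.95 RPM in RIP and 0.81 RPM in input, a log2 ratio of 0.23. A peak of 25 nt, placed at -1870 nt from the RefSeq start and so upstream of it, had 0.16 RPM in RIP and 0.01 RPM in input, which leaves the size of its ratio ill defined. The rule that names genes by position was relaxed after this peak was seen. Under the stricter rule, by which all peaks must touch the gene, RRM2 is left out.

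A lower ratio at the 3′ end was common in the list and in all genes. In 29 replication genes with 2 or more peaks, the peak nearest the 5′ end had a higher log2 ratio than the peak nearest the 3′ end in 21 (72.4%), against 69.9% of 4614 genes. The median log2 ratio was 1.12 at the 5′ peak and 0.71 at the 3′ peak in the replication genes, and 1.40 and 0.96 in all genes. The declines included POLE2, from 1.89 to -0.61, GMNN, from 1.53 to -0.06, and POLD2, from 1.72 to 0.48, whereas the size of the RRM2 decline rests on the upstream peak with 0.01 RPM of input and is not ranked. GMNN had 13.3 RPM in RIP and 4.60 RPM in input at its start and 3.05 RPM in RIP and 3.19 RPM in input at its 3′ end. TK1 had 15.2 RPM in RIP and 4.85 RPM in input at the 5′ peak and 23.8 RPM in RIP and 15.0 RPM in input at the 3′ peak, log2 ratios of 1.64 and 0.66. The opposite order was found at 8 genes, with the largest differences at GINS2 (0.42 at the 5′ peak and 1.40 at the 3′ peak), MCM4 (0.17 and 1.07), POLA2 (1.12 and 1.95) and RFC1 (0.60 and 1.43).

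**Figure D5:**
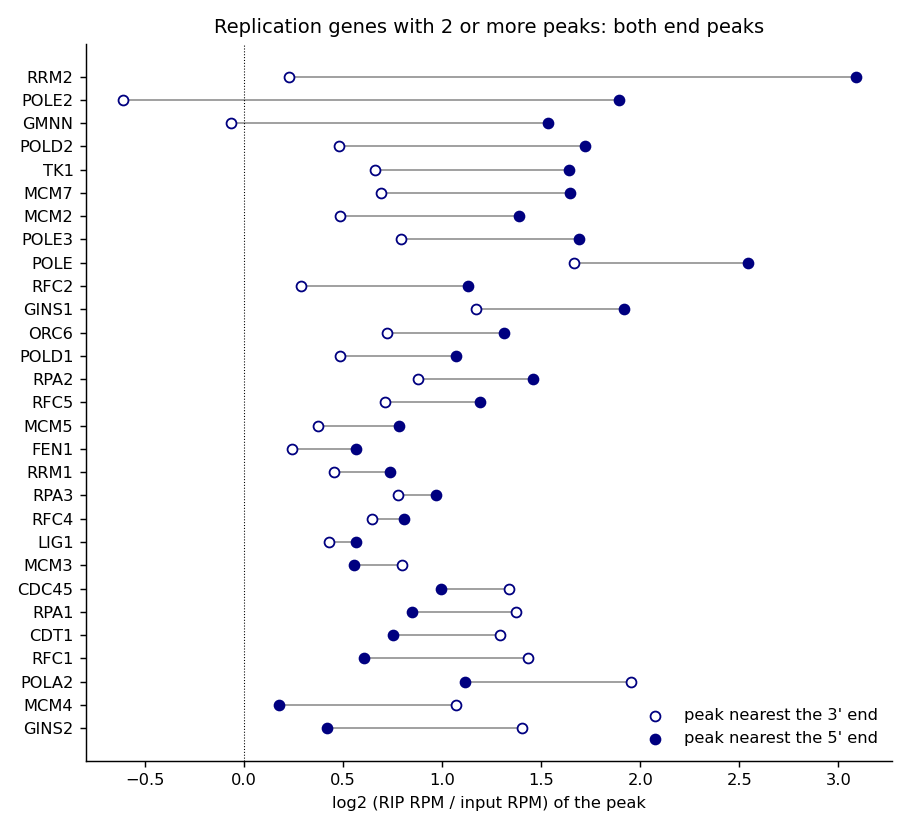
log2 ratio of RIP to input RPM (x axis) of the peak nearest the 5′ end (filled) and nearest the 3′ end (open) for the 29 replication genes with 2 or more peaks, ordered by the difference. The filled point lies to the right in 21 genes, from LIG1 up to RRM2, and to the left in 8, from MCM3 down to GINS2.

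The most 5′ peak of a replication gene often began close to the start of the gene. It began within 100 nt of the annotated start in 22 of 36 genes (61.1%), and 51.8% of 7364 named genes did the same. In 5 of the 36 genes it began exactly 25 nt inside, as it did in 258 of the 7364 named genes. The distance of 100 nt was chosen after the data were seen. The peaks of the list had a median width of 556.5 nt against 275 nt for all peaks, but peaks over 5000 nt were 8.47% of the list against 14.1% of all peaks, and peaks of 25 nt were 17.8% against 15.0%. RIP was at least 2 times input at 44 of the 118 peaks (37.3%), where 56.6% of all peaks were, and 4 peaks (3.39%) were below input, where 3.84% of all peaks were. These 4 were the inner POLE2 peak, the 25 nt MCM7 peak and 2 peaks of GMNN. Of the 118 peaks, 3 lay over a peak of the other strand and 6 listed several identifiers, against 18.1% and 8.62% of all peaks.

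Having a peak at all was more frequent in the list than among protein-coding genes. The 36 genes with peaks are 36 of 47, whereas 32.8% of 20046 RefSeq protein-coding genes had a named peak. The genes without one were ORC1 to ORC5, CDC6, GINS4, RFC3, POLA1, PRIM1 and POLD3. The share was not set against expression, and the expression of the genes without a peak was not analysed here.

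Lists of other genes of cell division gave a background for the machinery, with the 3 highest and 3 lowest genes of each named among those with at least 1 RPM of input. Over all genes, 62.7% were at 2-fold or more. Of 34 further replication genes, 18 had peaks, with a median log2 ratio of 1.04, and 11 were at 2-fold or more (61.1%). The highest were MCMBP, which binds MCM complexes, at 9.96 RPM in RIP and 1.36 RPM in input, TOP2B, a topoisomerase, and RNASEH2C, a subunit of RNase H2. The lowest were DONSON, with 13.1 RPM in RIP and 15.6 RPM in input, STN1 and LRWD1. The further nucleotide supply genes had a median of 0.94 in 21 genes, 8 of which were at 2-fold or more (38.1%). They ran from NME1, ADSL and ATIC, with log2 ratios of -0.02, 0.11 and 0.19, to CTPS1, CMPK1 and DCK, with 1.83, 2.02 and 2.38. Chromatin assembly genes had a median of 0.95 in 13 genes, 5 at 2-fold or more (38.5%). SLBP (which binds histone mRNA), RBBP7 and RBBP4 were highest and SSRP1, ASF1A and ASF1B lowest.

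The regulators of the G1/S transition had a higher median than the machinery. Their median log2 ratio was 1.31 in 20 genes, and 15 were at 2-fold or more. E2F1, an activator of replication genes, had 9.50 RPM in RIP and 1.18 RPM in input, the highest log2 ratio of that list, followed by E2F3 at 2.37 and CDK6 at 1.92. CKS1B, SKP2 and CDK4 were lowest, with log2 ratios of 0.32, 0.40 and 0.47. Mitosis genes had a median of 1.35 in 37 genes, 25 at 2-fold or more (67.6%). KIF11, SMC4 and NCAPG were highest and PTTG1, CCNB2 and CDCA8 lowest. Repair genes had a median of 1.18 in 33 genes, 18 at 2-fold or more (54.5%). MSH6, PARP1 and CHEK1 were highest and XRCC6, ERCC1 and XRCC1 lowest. Set against their input classes, the median differences were 0.20 for G1/S regulators, 0.03 for mitosis, 0.00 for further replication genes, -0.08 for further nucleotide supply, -0.12 for chromatin assembly, -0.13 for the replication machinery and -0.25 for repair. No test of the differences between lists was made.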

How the data were processed

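The deposited peak list was made by the authors from 2 PRMT5 RIP and 2 input libraries, and holds RPM (reads scaled to library size) for RIP and for input at each peak, pooled over replicates. The submitters' processing notes name fastp, HISAT2 and hg38, and the peak caller is not given in the sources used here. Its fold change, p-value, FDR and score columns hold the authors' own comparison of RIP with input and were not used. Peaks went to their first identifier. Names came from 1999 available entries of the study's list of PRMT5 targets, and otherwise from the RefSeq gene that more than 1 in 2 of an identifier's peaks touched. This named 7366 of 8478 genes, and 795 of 797 names found both ways were the same. The rule of more than 1 in 2 peaks was relaxed from a stricter one after RRM2 was seen to have 1 peak upstream of its RefSeq start. Strand is not in the RefSeq table for 4 of the 36 genes with a peak. Every gene with a peak is named with its RPM, and peaks are given singly for the MCM ring, PCNA and the 5 highest and lowest genes with at least 1 RPM of input. Of other lists the 3 highest and 3 lowest such genes are named. POLD4, peaks of other genes given singly, and the motif search were chosen after the values were seen. The members and lists were chosen with earlier results of these data known. The comparison by input class was run on simulated data with a known shift, which checks the computation only and says nothing of these genes. Settings tried were pseudocounts, summaries over peaks, filters, naming and classes. Python 3.11.15, pandas 2.3.3, numpy 2.4.6, scipy 1.17.1 and matplotlib 3.10.9 were used. No interval for a ratio and no limit of detection was computed, since the depth is unknown. A binomial interval over the 29 genes with 2 or more peaks only sorted the settings for the 5′ share. It is not printed, because genes are not replicates.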

Additional observations from a re-analysis of the deposited data

How the results depend on the processing

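The median log2 ratio of the replication genes was 0.79 with a pseudocount of 0.1, 0.71 with 1, 0.79 as the median over peaks, 0.69 at the peak with the most input, 0.76 for the 31 genes with at least 1 RPM of input, 0.84 without peaks over 5000 nt, and 0.79 without peaks of several identifiers or with every identifier listed. It was 0.79 for identifiers named only where all their peaks touch the gene and 0.84 without the inner POLE2 peak, settings chosen after seeing the data. Centring on the median of all genes turned the sign, to -0.38, because that median is subtracted. Centring also left 0 genes at 2-fold or more and 28 below input, where 10.6% and, by construction, 50.0% of all genes were. With a pseudocount of 1, 5 genes were at 2-fold or more, and the gap to all genes shrank (0.71 against 0.75). No gene was below input (0) as the median over peaks or without the inner POLE2 peak, against 2.35% and 2.21% of all genes. The median difference from genes of like input stayed negative in all 16 settings tried: -0.12 without a pseudocount, -0.11 with 1, -0.12 as the median over peaks, -0.26 at the peak with the most input, -0.10 with at least 1 RPM, -0.12 without peaks overlapping the opposite strand, -0.14 without peaks of several identifiers, -0.10 without peaks over 5000 nt, -0.11 in 20 classes, -0.10 in 5 classes, -0.15 in classes by mean level, -0.10 without the inner POLE2 peak and -0.16 under the stricter naming. Centring on the median of all genes is 1 of the 16 and cannot change that median difference, which stayed at -0.13. The number of genes with a peak and the share with a higher 5′ peak moved by less than 1.5 times in all 5 settings tried for each. By gene, 18 of 26 below and 6 of 10 above their input class kept that side in every one of up to 14 settings that gave them a value. RPA2 kept it in 6 and ORC6 in 9. Replicates could not be compared, and depth is unknown, so what it limits cannot be given beyond the step of 0.01 RPM in which values are listed. No paired analysis was possible because the list holds 1 pooled value for RIP and 1 for input.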
